A study of Saccharomyces cerevisiae with 18 samples.

Results

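The mitochondrial genome of budding yeast (Saccharomyces cerevisiae) was covered by 32 of the 2086 peaks in the deposited table, which were taken as all peaks on the chromosome named Mito and placed on the mitochondrial genes of build R64 by overlap. It carries COX1, COX2 and COX3 (core subunits of cytochrome c oxidase, complex IV), COB (cytochrome b of the bc1 complex, complex III), ATP6, ATP8 and OLI1 (membrane subunits of the ATP synthase), VAR1 (a protein of the small mitochondrial ribosomal subunit), the ribosomal RNAs 15S_RRNA and 21S_RRNA, RPM1 (the RNA of mitochondrial RNase P) and 24 transfer RNA genes. Each peak was measured as its share of the counts in all 32 peaks, called Mito counts here. This takes the size of the mitochondrial part of a library out of each value. The shares along the mitochondrial DNA can still move together with that size from library to library.

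Mitochondrial DNA is present in many copies per yeast cell and carries no nucleosomes; it is compacted by the HMG-box protein Abf2. It is transcribed by the polymerase Rpo41 with its partner Mtf1, and the genes lie between long AT-rich stretches, with introns in COX1, COB and 21S_RRNA. During the yeast metabolic cycle, cells in continuous culture alternate between bursts of respiration, which depend on the complexes these genes help encode, and phases of low oxygen use.

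The assay was ATAC-seq, which reads where a transposase can cut DNA, on fixed cycling cells from a fermenter whose walls had been digested before nuclei were prepared. One library was made at each of 18 ordered time points. The labels give 5 Oxidative libraries (time points 6 to 10), 5 Reductive Building libraries (11 to 15) and 8 Reductive Charging libraries, in an early stretch of 5 (1 to 5) and a late stretch of 3 (16 to 18). No mutation, drug or other treatment is named for any group, and neither the strain nor the minutes between time points are given. With a single library per time point, the libraries of one phase served as replicates, so p-values measure only the spread between time points, which may be technical; the 2 collection batches are not assigned to libraries in the labels and cannot be told apart from the phases.

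Total counts ran from 21254 to 29314373 per library and Mito counts from 3006 (time point 16) to 14089313 (time point 4). In 13 libraries at most 10% of the 2042 nuclear peaks outside the ribosomal DNA were at 0 counts, called well-covered here (6 Reductive Charging, 5 Oxidative and 2 Reductive Building libraries); time points 11, 13, 15, 16 and 18 were not. All 32 mitochondrial peaks had counts in 15 libraries, and 2, 1 and 7 of them were at 0 at time points 13, 15 and 16. At time point 16 a peak at 0 may hold up to 0.0998% of Mito counts (3 counts), against 2.13e-05% at time point 4. Intervals and floors cover counting error only.

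The peaks spanned 35803 bp, or 41.7% of the 85779 bp up to the end of the last peak. They held 68.1% of the bases annotated as genes and 24.6% of the remaining bases. Of the 32 peaks, 21 overlapped a gene and 11 overlapped none. Those 11 are numbered here as off-gene 1 to 11 in their order along the DNA. An overlap of 1 bp placed a peak on a gene, so shares given for genes include DNA beside them. OLI1 covers 39.2% of its peak, RPM1 23.8% and the proline transfer RNA gene tP(UGG)Q 5.36%. The full length of 15S_RRNA, ATP6, OLI1, COX2, COX3 and RPM1 lay in peaks, against 88.9% of 21S_RRNA, 67.3% of COB, 56.4% of COX1 and 36.9% of VAR1. ATP8, a small gene at Mito 27666 to 27812, lay in no peak: the nearest were the last COX1 peak, which ends at 26705, and the ATP6 peak, which starts at 28381. No count can therefore be given for ATP8. Of the 24 transfer RNA genes 7 lay in peaks, 1 of them beside RPM1.

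Per kilobase of peak, COX3 was the most heavily cut of the genes that have a peak and VAR1 the least. Counts in the COX3 peak (Mito 79028 to 80174) came to 8.27% ± 0.935 of Mito counts per kb (SD, n = 18 libraries), and this peak was the densest of the 32 in 17 libraries. COX1 followed with 4.28% ± 0.365 per kb over its 6 peaks. Both encode subunits of cytochrome c oxidase. Next came 21S_RRNA with 3.48% ± 0.278, OLI1 with 3.16% ± 0.704, COX2 with 2.42% ± 0.175 and COB with 2.32% ± 0.727. 15S_RRNA had 2.17% ± 0.476, RPM1 1.90% ± 0.523 and ATP6 1.65% ± 0.516 per kb. The VAR1 peak, on the end of the gene at Mito 49650 to 50091, had 0.309% ± 0.271 per kb. In this order some neighbours were well apart and others were not: COX3 lay above COX1 in 18 of 18 libraries and COX1 above 21S_RRNA in 17, whereas COX2 lay above COB in 7 and COB above 15S_RRNA in 12. The 11 off-gene peaks had 1.84% ± 0.485 per kb over their joint length, above ATP6 in 9 of 18 libraries. These levels are per length of peak and also depend on how reads mapped to the AT-rich sequence.

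**Figure D1:**
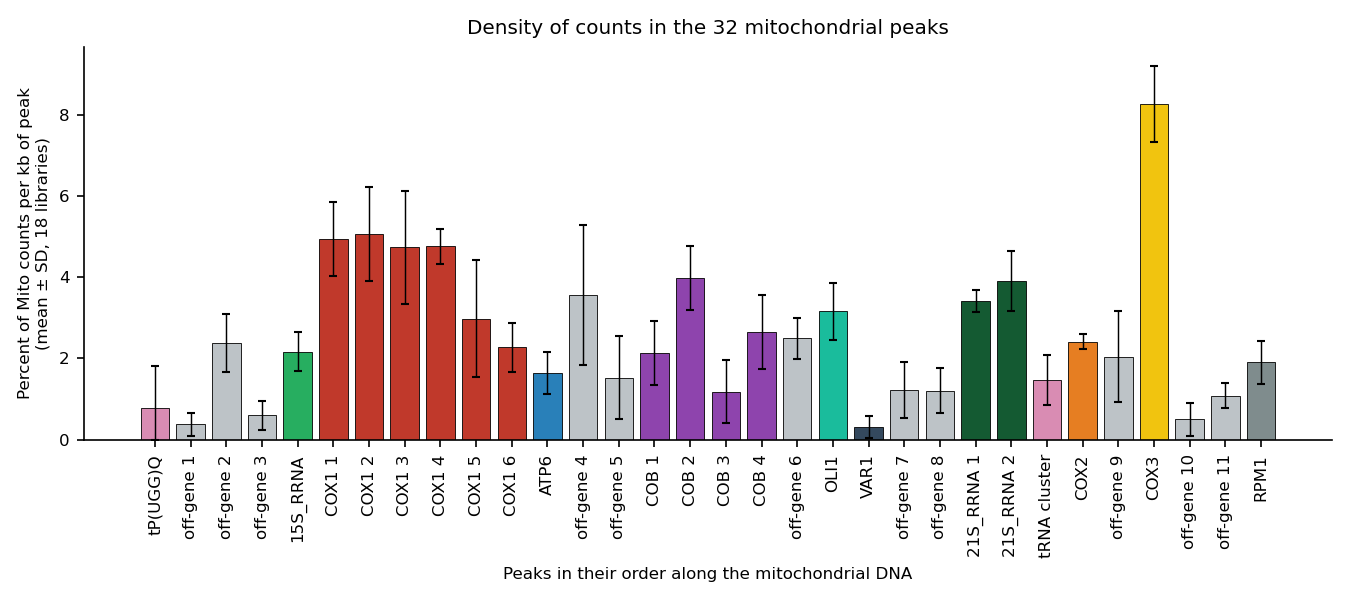
Share of Mito counts per kb of peak for the 32 mitochondrial peaks, in their order along the DNA (bars, mean of 18 libraries; lines, SD; colours by gene, grey for peaks off genes and RPM1). COX3 stands at 8.27% per kb, COX1 peaks 1 to 4 between 4.74% and 5.07%, and VAR1 at 0.309%.

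Cytochrome c oxidase genes took the largest part of the Mito counts. COX1, which encodes the catalytic subunit that holds the heme a3 and copper site, held 31.5% ± 2.69 of Mito counts (SD, n = 18), from 25.2% at time point 2 to 37.5% at time point 16. Its median share was 29.6% in the early Reductive Charging libraries, 32.7% in the Oxidative, 31.3% in the Reductive Building and 31.9% in the late Reductive Charging libraries, and the ranges of neighbouring stages overlapped. The peak on COX2, the subunit with the copper centre that receives electrons from cytochrome c, held 5.61% ± 0.408. It ran from 4.50% at time point 18 to 6.27% at time point 11. Only 32.5% of this peak lies on COX2, while 58.1% lies on Q0255, another annotated gene, so its values are not those of COX2 alone. COX3, the third core subunit, held 9.49% ± 1.07, from 7.26% at time point 2 to 11.4% at time point 15. The share of the peak on COX2 and Q0255 varied least of all 32 peaks. Its coefficient of variation over the 17 libraries other than time point 16 was 7.44%, against a median of 26.8% over the 32 peaks.

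Within COX1, mean density was nearly level over the first 4 peaks and lower in the last 2. Its 6 peaks, numbered along the DNA, had 4.94%, 5.07%, 4.74%, 4.76%, 2.98% and 2.27% of Mito counts per kb. The first exceeded the last in 17 of 18 libraries, with a median ratio of 2.11 and a range of 0.979 to 4.07. All of the first 4 exceeded both of the last 2 in 14 of 18 libraries. The annotation used lists several intron-encoded reading frames that share the COX1 start and 1, AI5_BETA (Mito 24156 to 25255), that lies between peaks 5 and 6 and touches no peak. It gives no exon limits, so the peaks are placed on the gene and not on its exons or introns. COX1 peak 3 (Mito 18031 to 19181), which had the highest mean raw count per kb of the 6, held 6.71%, 5.56%, 7.75%, 5.94% and 6.92% of Mito counts at time points 1 to 5. Its share was 6.05%, 6.73%, 3.00%, 5.87% and 4.54% at time points 6 to 10. At time points 11 to 15 it was 6.51%, 6.28%, 6.72%, 5.22% and 2.85%, and at time points 16 to 18 it was 2.63%, 6.00% and 2.85%. Time points 8, 15, 16 and 18 were the low ones, and they fall in all 3 phases.

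COB, whose product cytochrome b carries electrons across the membrane within the bc1 complex, was the gene with the widest swings among the large ones. It held 11.9% ± 3.74 of Mito counts (SD, n = 18). Its share was 15.1%, 15.2%, 14.6%, 14.8% and 14.0% at time points 1 to 5, a narrow band of early Reductive Charging. It was 14.1%, 12.6%, 6.98%, 13.8% and 10.0% at time points 6 to 10 and 17.0%, 16.0%, 7.77%, 9.01% and 10.2% at time points 11 to 15. In late Reductive Charging it was 4.46%, 13.3% and 6.23%. Low COB libraries (time points 8, 13, 14, 16 and 18) thus stood beside high ones within each of the Oxidative, Reductive Building and late Reductive Charging stretches. The 7 lowest COB shares were at time points 8, 10, 13, 14, 15, 16 and 18. Mito counts made up 6.02% (time point 13) to 28.9% (time point 15) of all counts there. In every other library they made up 34.7% (time point 9) or more. Whether the COB share follows the total Mito share was not tested. The 4 COB peaks did not vary alike: COB 2 (Mito 40551 to 41184), the densest at 3.99% per kb, had a coefficient of variation of 18.3% over the 17 libraries other than time point 16, and COB 3 (Mito 41655 to 42304), the sparsest at 1.18% per kb, one of 59.6%.

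Among the ATP synthase genes, ATP6, which encodes the subunit that forms the proton path beside the rotor, held 2.29% ± 0.718 of Mito counts (SD, n = 18). Its share was between 2.68% and 2.96% at time points 1 to 5, between 1.74% and 2.71% in the Oxidative libraries and between 1.69% and 3.14% in the Reductive Building libraries. In late Reductive Charging it was 0.200%, 2.51% and 1.66%. OLI1, the subunit of the rotor ring, held 1.86% ± 0.415. Its lowest, median and highest share was 1.29%, 1.45% and 1.90% in early Reductive Charging, 1.81%, 2.05% and 2.10% in the Oxidative, 1.57%, 2.13% and 2.86% in the Reductive Building and 1.10%, 1.83% and 2.10% in the late Reductive Charging libraries. The Oxidative and early Reductive Charging ranges of OLI1 overlap through time point 4, at 1.90%.

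**Figure D2:**
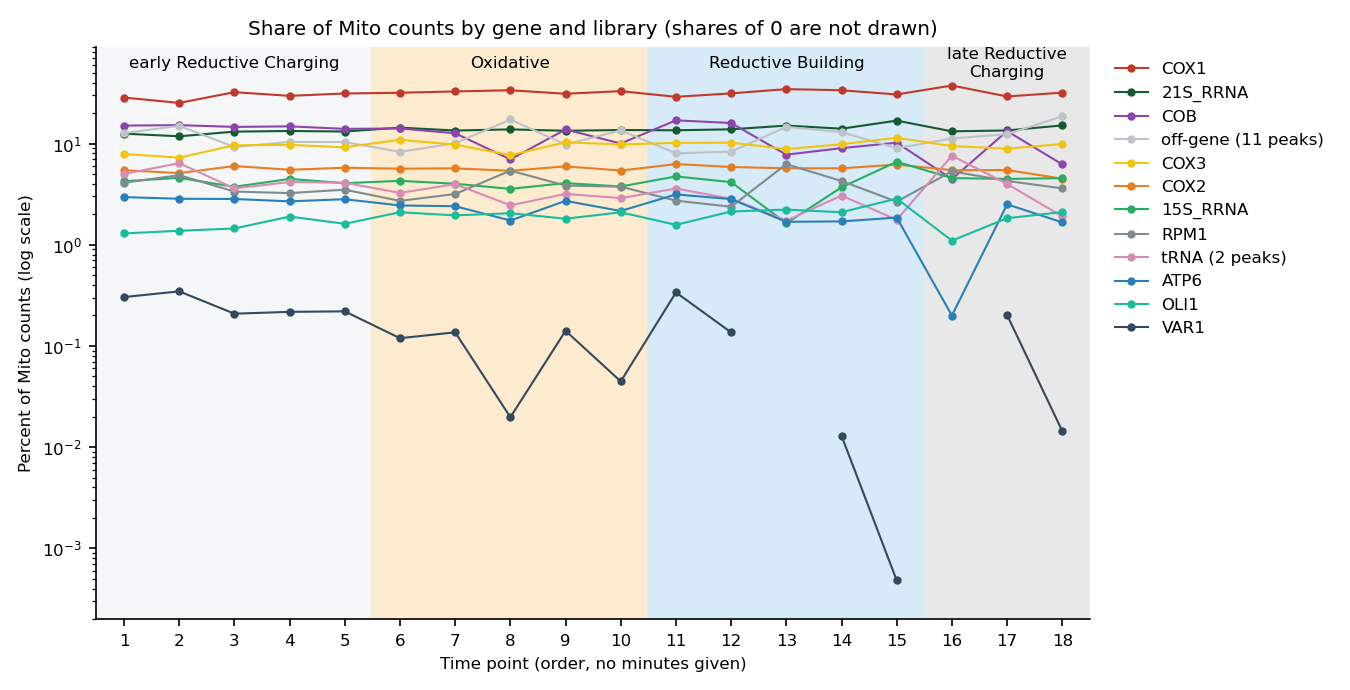
Share of Mito counts by gene (points, one library per time point; log axis; 11 off-gene peaks and 2 transfer RNA peaks summed). COX1, 21S_RRNA, COX2 and COX3 run nearly level, COB dips at time points 8, 13, 14, 16 and 18, and VAR1 ranges from 0.346% at time point 2 to 0 at time points 13 and 16, which are not drawn.

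Of the mitochondrial ribosome, whose other proteins are encoded in the nucleus, the mitochondrial DNA supplies VAR1 and the 2 ribosomal RNAs. 21S_RRNA, the large ribosomal RNA, held 13.8% ± 1.10 of Mito counts (SD, n = 18), from 11.8% at time point 2 to 16.9% at time point 15. Its first peak (Mito 58165 to 61490) had a coefficient of variation of 7.91% over the 17 libraries other than time point 16, and its second (Mito 61639 to 62260) one of 19.1%. Both overlap SCEI, the homing endonuclease encoded in the 21S_RRNA intron. 15S_RRNA, the small ribosomal RNA, held 4.18% ± 0.918, from 1.63% at time point 13 to 6.61% at time point 15, both Reductive Building libraries; in the other 16 libraries it lay between 3.57% and 4.73%. VAR1 held 0.304%, 0.346%, 0.208%, 0.217% and 0.220% at time points 1 to 5. Its share was 0.119%, 0.136%, 0.0198%, 0.141% and 0.0446% at time points 6 to 10. It was 0.338%, 0.136%, 0, 0.0130% and 0.000482% (1 count) at time points 11 to 15, and 0, 0.202% and 0.0144% at time points 16 to 18. The VAR1 share was thus between 0.208% and 0.346% in early Reductive Charging and between 0.0198% and 0.141% in the Oxidative libraries. VAR1 was not alone in this. COX1 peak 1 held at most 6.07% in early Reductive Charging and at least 6.26% in the Oxidative libraries. For 21S_RRNA peak 2 these limits were 2.24% and 2.28%. COB 3 held at least 1.099% early and at most 1.096% in the Oxidative libraries. How many of all peaks part these stages in the same way was not counted, and VAR1 is the sparsest of the 32 peaks. Reductive Building and late Reductive Charging each held both high and very low libraries. The 0 at time point 13 allows a share of up to 0.00289%.

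RPM1, whose RNA processes transfer RNA precursors, held 3.86% ± 1.06 of Mito counts (SD, n = 18), from 2.38% at time point 12 to 6.26% at time point 13; its peak also holds a methionine transfer RNA gene. A cluster of 5 transfer RNA genes (Mito 65961 to 67716) held 4.07%, 5.25%, 2.91%, 3.38% and 3.26% at time points 1 to 5. It held between 1.69% and 3.18% in the Oxidative libraries, between 1.28% and 2.80% in the Reductive Building libraries, and 1.06%, 3.04% and 1.28% at time points 16 to 18. Each of the early Reductive Charging libraries except time point 3, at 2.91%, was above the highest Oxidative library for this cluster. The proline transfer RNA gene tP(UGG)Q lay in a peak (Mito 233 to 1576) that held between 0.363% and 1.15% in 17 libraries and 6.52% at time point 16 (196 of 3006 counts; Wilson 95% interval 5.69% to 7.46%).

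The 11 off-gene peaks held 11.8% ± 3.11 of Mito counts together (SD, n = 18), from 8.01% at time point 11 to 18.6% at time point 18. They were less dense and more variable than the peaks on genes, which also hold DNA beside the genes. The median peak had 1.22% of Mito counts per kb off genes, against 2.65% on genes, and its coefficient of variation over the 17 libraries other than time point 16 was 48.1% off genes, against 21.1% on genes. Across the 32 peaks density and this coefficient had a Spearman correlation of -0.70, given as a description, since the peaks share libraries. Sparse peaks carry more counting error, but its part in this spread was not tested. Off-gene 10 had a coefficient of 69.3% in the well-covered libraries, at counts from 562 (time point 8) to 68600 (time point 1). The densest of them, off-gene 4 (Mito 30941 to 31953, between ATP6 and a glutamate transfer RNA gene), held 8.34% at time point 18, 6.60% at time point 8, 5.46% at time point 10, 5.32% at time point 13 and 4.48% at time point 14. In the other 13 libraries it held between 1.86% and 3.45%.

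The order of the 32 peaks by share was alike among the first libraries, but not among them alone. Spearman correlations of time point 3 were 0.992 with time point 9 (Oxidative) and 0.987 with time point 17. They were 0.981 and 0.983 with time points 11 and 12 (Reductive Building). Spearman correlations between pairs of libraries at time points 1 to 7, which span early Reductive Charging and the start of the Oxidative phase, were 0.944 to 0.996 with a median of 0.987. Time point 17, a late Reductive Charging library, was closest to time point 5, with 0.992. Time point 8 (Oxidative) was closest to time point 18 (late Reductive Charging), with 0.965, and time point 10 (Oxidative) to time point 14 (Reductive Building), with 0.985. Time point 16 was the least alike, with 0.655 to 0.816. At time point 16, 7 of the 32 peaks had a share whose Wilson 95% interval lay outside the range of all other libraries. Among them were ATP6 and COX1 peak 6, the latter with 6.12% against 1.92% to 3.29% elsewhere. The same count was not made for other libraries or over all peaks.

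**Figure D3:**
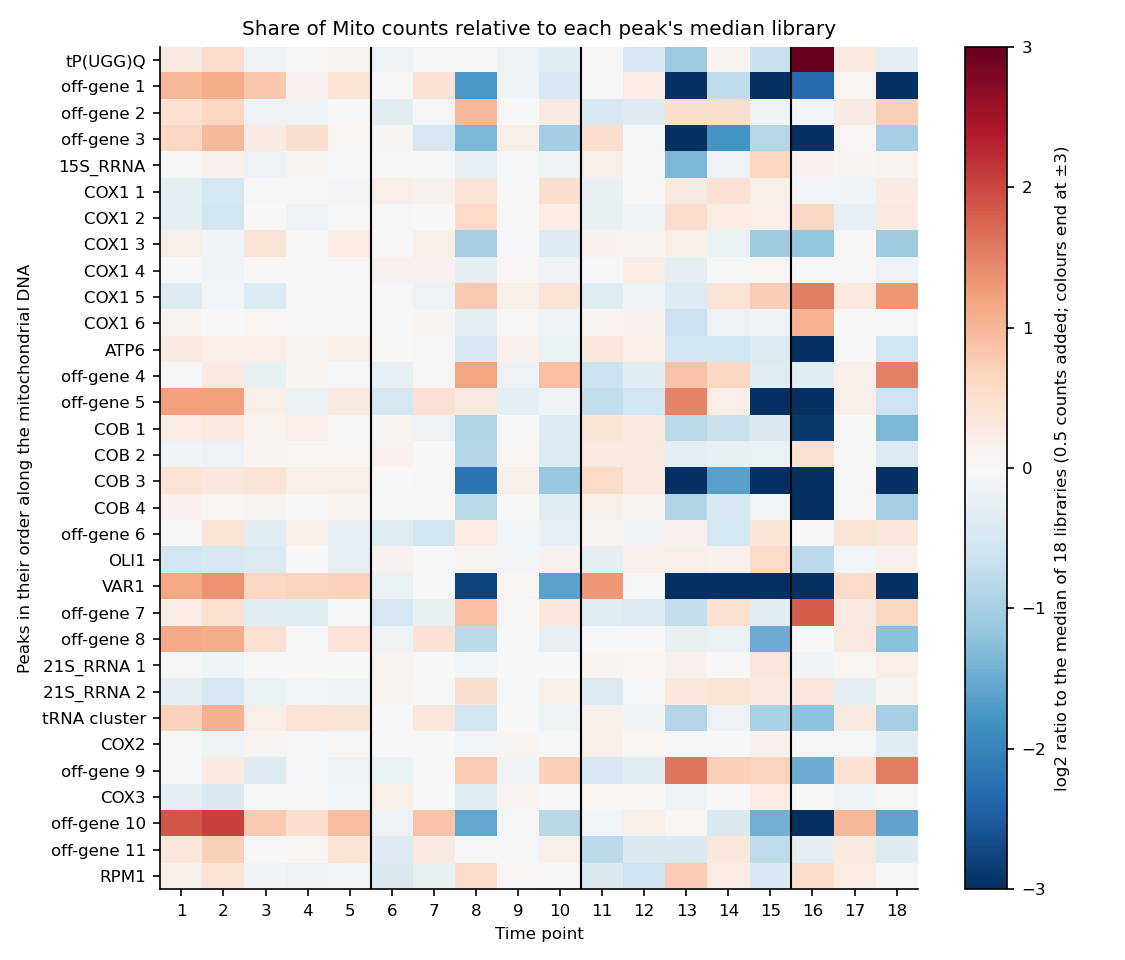
Share of Mito counts of each peak, as the log2 ratio to its median over 18 libraries (rows, 32 peaks along the DNA; columns, time points; 0.5 counts added; vertical lines part early Reductive Charging, Oxidative, Reductive Building and late Reductive Charging). Time points 8, 10, 13, 14 and 18 show high off-gene 4 and low COB, and time point 16 departs most from the rest.

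The Oxidative phase was set against Reductive Charging to ask whether the profile along the mitochondrial DNA differed in the respiratory phase. None of the 32 peaks passed an adjusted p of 0.05 (edgeR quasi-likelihood test, p adjusted over all 2086 peaks by the Benjamini-Hochberg method), against a background of 0% of all peaks. At an unadjusted p under 0.05 stood 2 mitochondrial peaks and 49 of all peaks, and DESeq2 and limma also called 0. For the genes, the log2 difference was 0.11 ± 0.12 for COX3 (SE), 0.05 ± 0.12 for COX2, -0.08 ± 0.24 for COX1 peak 3, -0.18 ± 0.19 for COB 2, -0.02 ± 0.32 for ATP6, 0.33 ± 0.19 for OLI1, -1.09 ± 1.05 for VAR1, -0.14 ± 0.20 for 15S_RRNA and 0.27 ± 0.18 for the denser, second peak of 21S_RRNA. The lowest values were those of the tP(UGG)Q peak, -1.10 ± 0.45, of VAR1 and of off-gene 10 (Mito 81254 to 81687), -1.09 ± 0.54. The highest were those of COX1 peak 1, 0.36 ± 0.14, of OLI1 and of 21S_RRNA peak 2. The lowest adjusted p among the 32 was 0.999. The 95% intervals show what the design could resolve: -0.14 to 0.36 for COX3, -0.20 to 0.30 for COX2 and -0.21 to 0.22 for the first 21S_RRNA peak, but -3.33 to 1.14 for VAR1.

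The tP(UGG)Q value rested on time point 16: without that library it was -0.27. In the 13 well-covered libraries off-gene 10 was lower in the Oxidative than in the Reductive Charging libraries, with a log2 difference of -1.43 ± 0.36 (SE; edgeR adjusted p = 0.0489). It was the 1 mitochondrial peak of 32 called there, against 2.16% of all peaks, a count near that background. Its share was 0.145%, 0.293%, 0.0552%, 0.157% and 0.0910% of Mito counts at time points 6 to 10, against 0.588%, 0.669%, 0.280%, 0.228%, 0.310% and 0.322% at time points 1 to 5 and 17. The groups overlapped at time point 7, at 0.293%, which lay above time points 3 and 4. In the same libraries the transfer RNA cluster had -0.58 ± 0.17 (adjusted p = 0.0857) and COX1 peak 1 had 0.43 ± 0.13 (adjusted p = 0.0876).

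Reductive Building was set against the Oxidative phase, and Reductive Charging against Reductive Building, to follow the profile through the rest of the cycle. Again 0 of 32 peaks were called in either comparison, against a background of 0% in each (edgeR, adjusted over all peaks). At an unadjusted p under 0.05 stood 0 mitochondrial peaks and 101 of all peaks for Reductive Building over Oxidative, and 6 and 159 for Reductive Charging over Reductive Building. DESeq2 called 11 and 8 of all peaks, none of them mitochondrial, and limma called 0. In Reductive Building over Oxidative, the lowest log2 differences were those of off-gene 1, -0.63 ± 0.95 (SE), off-gene 7, -0.41 ± 0.34, and off-gene 11, -0.36 ± 0.28. The highest were those of off-gene 9, 0.34 ± 0.41, off-gene 6, 0.20 ± 0.22, and COB 2, 0.17 ± 0.21. In the well-covered libraries off-gene 1, 7 and 11 had 0.022, -0.11 and -0.017, and off-gene 9, off-gene 6 and COB 2 had -0.013, -0.12 and 0.23, so that off-gene 1, 9 and 6 turned in direction. The protein-coding genes lay near 0, with 0.06 ± 0.13 for COX3, 0.08 ± 0.13 for COX2, 0.07 ± 0.26 for COX1 peak 3, -0.03 ± 0.35 for ATP6, 0.12 ± 0.21 for OLI1 and 0.09 ± 1.12 for VAR1, as did 15S_RRNA with 0.08 ± 0.22 and the second 21S_RRNA peak with -0.02 ± 0.20.

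In Reductive Charging over Reductive Building, the lowest log2 differences were those of OLI1, -0.46 ± 0.19 (SE), off-gene 9, -0.40 ± 0.37, and COX1 peak 1, -0.26 ± 0.14. The highest were those of the tP(UGG)Q peak, 1.33 ± 0.45, off-gene 10, 1.20 ± 0.55, and off-gene 1, 1.16 ± 0.89. The lowest adjusted p among the 32 was 0.549 (edgeR). Without time point 16 the tP(UGG)Q value was 0.50. The remaining genes had -0.17 ± 0.12 for COX3, -0.14 ± 0.12 for COX2, 0.01 ± 0.24 for COX1 peak 3, 0.02 ± 0.19 for COB 2, 0.05 ± 0.32 for ATP6, 1.00 ± 1.05 for VAR1, 0.06 ± 0.20 for 15S_RRNA and -0.25 ± 0.18 for the second 21S_RRNA peak. In the well-covered libraries 0 mitochondrial peaks were called in either comparison, against 1.44% of all peaks for Reductive Building over Oxidative and 1.25% for Reductive Charging over Reductive Building. No mitochondrial peak had 2 phases whose libraries did not overlap, in any of the 3 comparisons, against 2.11% of all peaks for Oxidative over Reductive Charging, 4.51% for Reductive Building over Oxidative and 0.623% for Reductive Charging over Reductive Building.

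**Figure D4:**
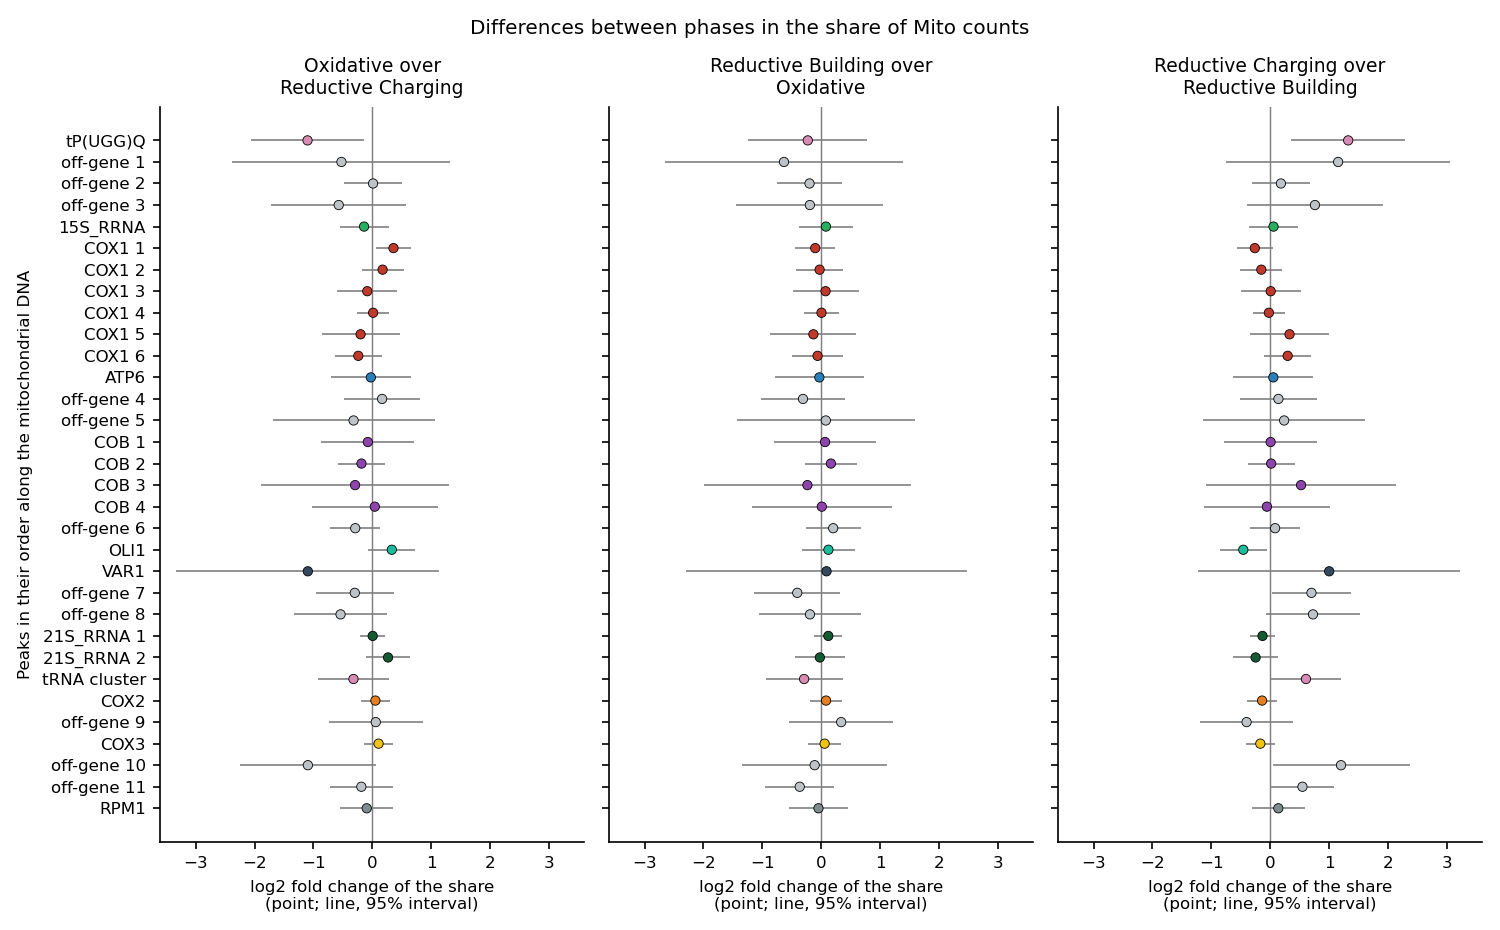
Log2 fold change of the share of Mito counts for the 32 peaks in the 3 phase comparisons (points; lines, 95% intervals; colours by gene). COX2, COX3, COX1 peak 4 and 21S_RRNA peak 1 have the narrowest intervals, all across 0, and VAR1 and off-gene 1 the widest.

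Peaks on genes and off genes were also described as sets, without a test. Mitochondrial values are scaled to the Mito total and nuclear ones to an adjusted total of their own, so their medians share no common zero. The median log2 difference for Oxidative over Reductive Charging was -0.07 over the 21 peaks on genes and -0.30 over the 11 off genes, against 0.11 over the nuclear peaks. For Reductive Charging over Reductive Building it was 0.01 on genes and 0.55 off genes, against 0.07 over the nuclear peaks. Positive values stood at 10 of the 11 peaks off genes and 12 of the 21 on genes. In the well-covered libraries the off-gene median was 0.39 with 8 of 11 positive, and the on-gene median was 0.04 with 11 of 21. With all libraries, the median for Reductive Building over Oxidative was 0.01 on genes and -0.19 off genes, against -0.16 over the nuclear peaks. For late over early Reductive Charging it was 0.09 on genes and -0.42 off genes, against -0.29 over the nuclear peaks.

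The late stretch of Reductive Charging was set against the early one, since the label covers both ends of the sampled series. One of the 32 mitochondrial peaks was called, COX1 peak 5 (Mito 23405 to 23933), against a background of 5.28% of all peaks (0.624% higher and 4.65% lower late). A single call of 32 is not above the 5.28%. It is given as a value of this peak and not as a trait of the mitochondrial DNA. Its share of Mito counts was 3.63%, 1.55% and 3.17% at time points 16 to 18, against 0.960%, 1.18%, 0.952%, 1.27% and 1.24% at time points 1 to 5. Every late library lay above every early one, with time point 17 nearest to them. The log2 difference was 1.30 ± 0.27 (SE; edgeR adjusted p = 0.0156; DESeq2 adjusted p = 0.0112), and limma gave 1.23 with an adjusted p of 0.102. The comparison rests on 3 late libraries, of which time points 16 and 18 were poorly covered. In the well-covered libraries, which leave time point 17 alone on the late side and assume that it varies like the others, the difference was 0.47 (edgeR adjusted p = 0.0694), and 0 mitochondrial peaks were called against 35.1% of all peaks.

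No other COX1 peak passed the threshold with all 8 libraries. COX1 peak 3, next but one before it, had a log2 difference of -0.78 ± 0.25 (SE; edgeR adjusted p = 0.0958), and peak 4, between them, one of -0.02 ± 0.13. COX1 peaks 1, 2 and 6 had the same sign as peak 5, with 0.20 ± 0.16, 0.45 ± 0.19 and 0.38 ± 0.23. COB 1, COB 3 and COB 4 had -1.15 ± 0.44, -1.60 ± 0.74 and -1.04 ± 0.73, while COB 2 had 0.04 ± 0.20. The transfer RNA cluster had -1.06 ± 0.33 (adjusted p = 0.0855), ATP6 -0.92 ± 0.49, VAR1 -1.53 ± 0.77 and OLI1 0.15 ± 0.24. COX2, COX3, 15S_RRNA and the 21S_RRNA peaks lay between -0.12 and 0.29. None of these passed the threshold.

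The listed shares of late and early libraries did not overlap for 8 of the 32 peaks: COX1 peak 5 was higher late, and off-gene 1, off-gene 3, ATP6, COB 1, COB 3, COB 4 and VAR1 were lower late. That is 25% of the mitochondrial peaks, against 29.1% of all peaks counted in the same way (2.25% higher and 26.8% lower late), a share near the background. For off-gene 1 the depth does not show it: its 0 at time point 16 allows up to 0.0998%, above the lowest early library at 0.0900% and above time point 17 at 0.0854%. In the 6 other lower peaks time point 17 was the nearest to the early libraries, and time points 16 and 18 lay below it. For COB 1 the share was 0.965%, 7.19% and 2.84% at time points 16 to 18, against 8.49%, 8.98%, 7.83%, 8.38% and 7.42% at time points 1 to 5. For COB 3 it was 0, 0.963% and 0.119%, against 1.29%, 1.23%, 1.27%, 1.11% and 1.10%.

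**Figure D5:**
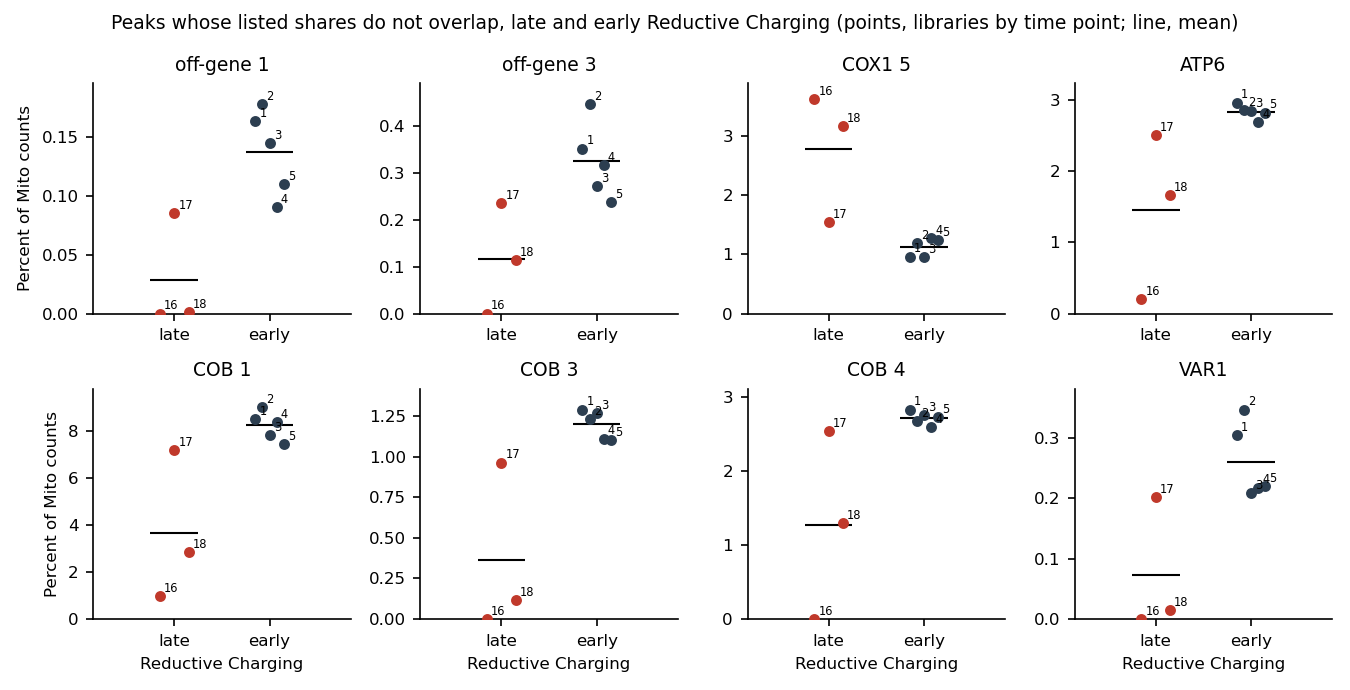
Share of Mito counts in late and early Reductive Charging for the 8 peaks whose listed shares did not overlap (points, libraries with their time point; lines, means; axes start at 0). Time point 17 sits nearest to the early libraries in the lower peaks other than off-gene 1, whose 0 at time point 16 allows up to 0.0998%, and at 1.55% in COX1 peak 5, where the highest early library has 1.27%.

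Single late libraries set how many peaks were called. Without time point 16, COX1 peak 5 and off-gene 9 were called, 2 of 32, against 14.3% of all peaks. Without time point 18, 3 were called (COX1 peak 5, the tP(UGG)Q peak and off-gene 7), against 17.8% of all peaks. Without time point 17, 15 of 32 were called, 4 higher and 11 lower late, a share near the 41.2% of all peaks called. Among them were COX1 peak 2 (0.65 ± 0.16, edgeR adjusted p = 0.00426), COX1 peak 3 (-1.26 ± 0.16), COB 1 (-2.08 ± 0.32), ATP6 (-1.50 ± 0.54) and the transfer RNA cluster (-1.68 ± 0.24). COX1 peak 5 was called in all 8 fits that left out 1 library, with log2 differences of 1.07 to 1.60.

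A smooth change over the 18 time points, without reference to phases, was tested with a spline of 4 degrees of freedom. None of the 32 peaks passed, against a background of 0% of all peaks (edgeR; 3 mitochondrial peaks and 124 of all peaks at an unadjusted p under 0.05; DESeq2 called 53 of all peaks and 0 mitochondrial ones; limma called 0). The lowest adjusted p values were 0.341 for the transfer RNA cluster, 0.371 for COX1 peak 5 and 0.564 for off-gene 10. In the 13 well-covered libraries off-gene 5, off-gene 8 and off-gene 10 were called, with adjusted p of 0.0385, 0.0462 and 0.0385, which is 3 of 32 against 5.90% of all peaks. Their mean shares were 0.398%, 0.265% and 0.215% of Mito counts (n = 18). Without time point 17, 1 peak was called, the transfer RNA cluster with an adjusted p of 0.0464, against 0.192% of all peaks.

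When the mitochondrial peaks were set against all peaks instead of against each other, every one of the 32 had a lower fitted value in the Oxidative than in the Reductive Charging libraries. The median log2 difference was -1.04, against 0.15 over the nuclear peaks, and the values ran from -2.22 ± 0.96 (SE) for off-gene 10, -1.998 ± 1.51 for VAR1 and -1.66 ± 0.82 for off-gene 5 up to -0.59 ± 0.54 for 21S_RRNA peak 2, -0.57 ± 0.59 for OLI1 and -0.53 ± 0.56 for COX1 peak 1. None was called, against 0% of all peaks (edgeR; 6 mitochondrial peaks and 54 of all peaks at an unadjusted p under 0.05; DESeq2 and limma called 0). The 32 values share the mitochondrial total of each library and are not independent. Mito counts made up 29.6% ± 13.4 of all counts in the Oxidative libraries (SD, n = 5) and 45.1% ± 17.3 in the Reductive Charging libraries (n = 8), a difference of -15.5 percentage points (two-sided exact permutation test, p = 0.124; 0.186 adjusted over 3 phase comparisons). Without time point 16 this difference was -19.9 points (exact p = 0.0354). For Reductive Building minus Oxidative the difference was -1.37 points (exact p = 0.865), and it turned to 5.95 points when ribosomal DNA counts were left out of the total. For Reductive Charging minus Reductive Building it was 16.9 points (exact p = 0.106), against 8.63 points without ribosomal DNA counts (exact p = 0.485) and 21.3 points without time point 16 (exact p = 0.0328). More copies of mitochondrial DNA per cell, more cutting per copy and more mitochondria carried into the nuclear preparation cannot be told apart in these shares.

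In the 13 well-covered libraries 5 mitochondrial peaks were called lower in the Oxidative than in the Reductive Charging libraries against all peaks, all of them off genes (off-gene 2, 5, 7, 9 and 11), beside 2.83% of all peaks called. Their log2 differences were -1.45 ± 0.38 (SE), -2.04 ± 0.43, -1.41 ± 0.36, -1.22 ± 0.32 and -1.68 ± 0.39, with edgeR adjusted p of 0.0410 to 0.0485. The median was -1.25 over the 21 peaks on genes and -1.68 over the 11 off genes. The difference of total share was -24.2 points in these libraries (exact permutation p = 0.00433, not adjusted). They leave out time points 16 and 18, which had the lowest total shares of Reductive Charging, 14.1% and 24.0%. The groups that remained parted narrowly, with 46.70% at time point 6 (Oxidative) against 46.71% at time point 17 (Reductive Charging).

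Nuclear genes for the upkeep and expression of mitochondrial DNA were looked at beside the mitochondrial peaks. Of 45 listed genes, 13 had a nuclear peak within 500 bp of their annotated start. They include MIP1 (the mitochondrial DNA polymerase), MHR1 (recombination), ACO1 (aconitase, also found with mitochondrial DNA), SLS1 (coupling of transcription and translation), CBP1 and CBS1 (COB messenger stability and translation), CBP2 (splicing of a COB intron), MSS51 (COX1 translation) and PET122 (COX3 translation). None of the 13 passed in any of the 4 comparisons, against 5.28% of all peaks for late over early Reductive Charging. The background was 0% of all peaks for Oxidative over Reductive Charging, Reductive Building over Oxidative and Reductive Charging over Reductive Building. Beside such backgrounds, the lack of a call among 13 says little about these genes. Their median log2 difference was 0.14 for Oxidative over Reductive Charging, -0.01 for Reductive Building over Oxidative, 0.20 for Reductive Charging over Reductive Building and -0.17 for late over early Reductive Charging, against 0.11, -0.16, 0.07 and -0.29 over all nuclear peaks. The nearest to the threshold was SLS1 in late over early Reductive Charging, with 1.29 ± 0.35 (SE; edgeR adjusted p = 0.0539).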

How the data were processed

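ATAC-seq counts per peak were read from the authors' deposited table of raw counts (2086 peaks, 18 libraries). The tools named are Trimmomatic, Bowtie2 and MACS2, and the build is R64, per the submitters' processing notes. Not given in the sources used here are versions, whether peaks were called on pooled libraries, any shift of cut sites, and what was done with duplicates and with reads that map to several places, which bear on AT-rich mitochondrial repeats.

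Starts were made 1-based, and peaks were placed by overlap of at least 1 bp with RefSeq R64 genes. Differences were tested with edgeR 4.0.16 (R 4.3.3; quasi-likelihood F test, filterByExpr, Benjamini-Hochberg adjustment over all peaks, threshold 0.05), with mitochondrial peaks scaled to the Mito total, the 12 ribosomal DNA peaks (within 1000 bp of that array) to theirs and other nuclear peaks to their TMM-scaled total. All 18 libraries entered the phase fits and the 8 Reductive Charging libraries the late and early comparison. A further fit used 1 TMM factor per library. Alternatives were DESeq2 1.42.0, limma 3.58.1, other scalings, filters, library sets and spline degrees of freedom (3 and 5), and each library left out in turn. The fits were first checked on simulated counts. Exact permutation treats neighbouring time points as exchangeable.

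Named with values were the densest peak of each gene by mean count per kb, and in each comparison the called peaks or, where none passed, the 3 highest and 3 lowest log2 fold changes; further peaks were chosen after their values were seen. The members, lists and settings were chosen with earlier results of these data known. Plots used matplotlib 3.10.9.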

Additional observations from a re-analysis of the deposited data

Results flagged for a closer look

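ATP6 held 0.200% of Mito counts at time point 16 (6 of 3006 counts; Wilson 95% interval 0.0915% to 0.435%), far below the other 7 Reductive Charging libraries, which held between 1.66% and 2.96%. Its gap to the nearest of them was 0.531 of the whole range. It was the 1 such value among 39 sets of 5 or 8 libraries examined. Chance gives about 1 in 20 sets, so a single value among 39 is not above chance. Time point 16 has the fewest Mito counts of all libraries, and the part of its low depth in this value was not tested.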

How the results depend on the processing

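Of 746 alternative values for single mitochondrial peaks, 736 kept their direction and their side of the threshold. Outside late over early Reductive Charging these peaks had not passed with all libraries (edgeR adjusted p of 0.341 or more). Their staying on that side therefore says little. In the 13 well-covered libraries the count of called peaks was 1 for Oxidative over Reductive Charging, 3 for the time course, 5 against all peaks and 0 for late over early Reductive Charging. For late over early it was 0 with limma, 2 without libraries under 5000 Mito counts, and between 1 and 15 when each library was left out; for the time course that range was 0 to 1. For Reductive Building over Oxidative, off-gene 1, off-gene 9 and off-gene 6 turned to 0.022, -0.013 and -0.121 in the well-covered libraries, and off-gene 9 ran from -0.047 (without time point 13) to 0.52 when each library was left out; the cause was not tested. The total Mito share for Oxidative minus Reductive Charging was -24.2 points in the well-covered libraries (exact p = 0.00433) and -19.9 without time point 16 (exact p = 0.0354), and ran from -19.9 to -12.1 points when each library was left out. Reductive Building minus Oxidative turned to 5.95 points without ribosomal DNA counts and ran from -6.12 to 4.20, turning positive without time point 6, 13 or 14 (2.89, 4.20 and 0.458). Reductive Charging minus Reductive Building was 8.63 points without ribosomal DNA counts (exact p = 0.485) and 21.3 without time point 16 (exact p = 0.0328), and ran from 11.3 to 21.6 when each library was left out. Time point 16 has 3006 Mito counts, so peaks under 0.0998% cannot be seen there. No paired analysis was possible because the groups compared share no replicate that the labels number alike.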
